A study of Mus musculus with 12 samples.

Results

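The 8 genes described here are the chains of the interleukin-2 (IL-2) receptor (Il2ra, Il2rb and Il2rg), the kinases and transcription factors that act directly below it (Jak1, Jak3, Stat5a and Stat5b), and perforin (Prf1), among 14219 genes measured in mouse bone marrow plasma cells. They were picked by name. The choice was made with their values in marked and unmarked cells known, so differences between those cells are described for the 8 genes without a test. All 8 had a row in the table and passed the filter on low counts, which kept 12704 genes. The cells came from C57BL/6 mice of the genotype BLTcre.mcl1fl/+, in which tamoxifen turned on a reporter made from the human CD4 gene. Plasma cells that carried human CD4 (marked) and plasma cells that did not (unmarked) were sorted at 60 and at 270 days after tamoxifen, with 3 libraries in each of the 4 groups. Every group shares the tamoxifen treatment and the genotype with 1 floxed Mcl1 allele, so no group has an unmodified genotype or went without tamoxifen. Whether the floxed allele was also lost in marked cells was not tested, so marking and such a loss cannot be told apart. The sources used here do not give the age of the mice, the promoter behind the Cre, the sort gates or any pooling of animals.

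IL-2 and IL-15 signal through a shared pair of chains, the beta chain (Il2rb) and the common gamma chain (Il2rg), and the alpha chain (Il2ra, CD25) raises the affinity for IL-2. Jak1 and Jak3 are bound to the beta and gamma chains and phosphorylate STAT5, which enters the nucleus and drives survival and growth genes. Perforin forms pores in target cell membranes, is best known from cytotoxic T cells and NK cells, and its gene is induced by this pathway in those cells.

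On the GRCm38 build with GENCODE M21 annotation, Il2ra lies at chr2:11642807-11693193 on the plus strand, Il2rb at chr15:78479256-78495271 on the minus strand and Prf1 at chr10:61297833-61304680 on the plus strand. The sequences before the start sites of Il2ra and Prf1, which were low in marked cells, are shown beside that of Il2rg, which was at a like level in both populations. They come from RefSeq (GRCm38.p6), which matched 7 of the 8 genes by symbol, Il2rb being the exception. Bases in exons were trimmed. Each is written 5′ to 3′ on the strand of its gene, at chr2:11642542-11642791, chr10:61297586-61297832 and chrX:101268256-101268505, and capitals mark motif matches on either strand.
Il2ra: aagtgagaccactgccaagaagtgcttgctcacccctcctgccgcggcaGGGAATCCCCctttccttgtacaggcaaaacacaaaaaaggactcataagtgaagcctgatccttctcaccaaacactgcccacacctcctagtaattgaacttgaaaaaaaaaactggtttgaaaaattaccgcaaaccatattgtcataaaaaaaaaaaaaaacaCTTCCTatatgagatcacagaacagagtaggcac
Prf1: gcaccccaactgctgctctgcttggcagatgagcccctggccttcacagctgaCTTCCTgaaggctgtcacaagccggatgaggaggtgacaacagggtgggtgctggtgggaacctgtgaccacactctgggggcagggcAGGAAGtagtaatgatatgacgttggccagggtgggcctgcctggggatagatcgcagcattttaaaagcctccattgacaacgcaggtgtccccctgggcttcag
Il2rg: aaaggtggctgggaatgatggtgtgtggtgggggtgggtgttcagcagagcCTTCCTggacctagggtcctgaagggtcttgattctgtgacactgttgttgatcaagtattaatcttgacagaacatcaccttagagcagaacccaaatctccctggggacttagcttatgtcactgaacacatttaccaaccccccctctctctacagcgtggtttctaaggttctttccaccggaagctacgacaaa
The motifs searched on both strands were that of STAT5 (TTCNNNGAA), T-box factors (AGGTGTGA), ETS factors (AGGAAG) and NF-kB. In the Il2ra window the capitals are an NF-kB match that begins at position -201 from the start site and an ETS match at -34. Prf1 had ETS matches at -197 and -109, and Il2rg had 1 at -199. ETS matches were present in 29.6% of 32536 promoter windows of 250 bases, NF-kB matches in 5.03%, STAT5 matches in 7.04% and T-box matches in 1.12%. These letters for STAT5 were found in 0 of the 9 windows of the 7 genes.

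Library totals over the genes of the table ran from 7449468 to 15943547 reads and levels are in CPM, which divide the reads of a gene by the total of its library. Day 270 marked libraries 2 and 3 had reads in 11022 and 11301 genes, against 12580 to 13506 in the other libraries. Together with day 60 marked library 2 they were also left out in an added run of each count. Day 60 marked library 2 had reads in 12643 genes and was doubted from earlier results of these data. In the added run the day 270 marked group is library 1 alone, so values of that group rest on that library. Mcl1, the floxed gene, had 520 ± 32.2 CPM (SD, n = 3) in unmarked and 414 ± 85.6 in marked cells at day 60, and 555 ± 31.7 and 438 ± 66.7 at day 270. Its marked minus unmarked difference was -0.35 on the log2 scale at both days (adjusted p = 0.784 and 0.357, limma). The plasma cell marker Sdc1 was at 1751 CPM or more in every library. The labels give each marked library the specimen number of 1 unmarked library of its day, and these are called pairs. Replicate 1 of every group has library numbers apart from the others. Among the others every unmarked number is lower than every marked one, so library order and marking cannot be told apart in those libraries.

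Il2rb, the beta chain, was lower in marked than in unmarked cells in all 6 specimen pairs, those of replicate 1 included. Its unmarked levels at day 60 were 15.4, 14.3 and 31.9 CPM, and its marked levels were 2.99, 5.35 and 1.43 CPM. At day 270 the unmarked libraries had 32.4, 8.37 and 19.0 CPM and the marked libraries had 2.63, 0 and 0 CPM. The 6 marked libraries all lay below the 6 unmarked ones, and the zeros of day 270 marked libraries 2 and 3 allow up to 0.403 and 0.325 CPM (3 reads). The mean was 20.5 ± 9.86 CPM (SD, n = 3) against 3.26 ± 1.97 at day 60, and 19.9 ± 12.04 against 0.878 ± 1.52 at day 270. On the log2(CPM + 0.5) scale the marked minus unmarked difference was -2.53 ± 0.72 (SE) at day 60 and -4.28 ± 0.72 at day 270. Such differences of low genes depend on the 0.5 added, and with 1 added instead they were -2.35 and -3.58. In summed reads, unmarked cells had 6.98 times the marked level at day 60 (95% exact interval 5.65 to 8.70, counting error only) and 15.5 times at day 270 (11.4 to 21.8). Without the 3 libraries left out in the added run, the log2 difference at day 270 was -2.51.

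Il2ra, the alpha chain, was the lowest of the 8 genes. Unmarked libraries had 6.41, 4.29 and 1.45 CPM at day 60 and 3.13, 5.58 and 2.31 CPM at day 270. Marked libraries had 0.324, 0 and 0 CPM at day 60 and 0.314, 0 and 0 CPM at day 270. The populations did not overlap, and the only marked libraries with any read were the 2 of replicate 1. The marked libraries held 9 reads in all and the unmarked ones 267. That is a ratio of 26.5 after scaling to library totals, with a 95% exact interval of 13.8 to 58.6. The log2 differences were -2.76 ± 0.65 and -2.75 ± 0.65 at days 60 and 270. At so few reads they depend on the scale, with -2.06 and -2.03 at a pseudocount of 1 and -4.80 and -4.67 in edgeR. The 4 zeros allow 0.268 to 0.403 CPM each.

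Prf1 had the same direction. Unmarked libraries had 15.2, 17.3 and 10.05 CPM at day 60 and 21.1, 12.4 and 10.3 CPM at day 270. Marked libraries had 2.27, 1.31 and 1.16 CPM at day 60 and 3.95, 3.49 and 0 CPM at day 270. Every unmarked library lay above every marked one. Summed reads in unmarked cells were 8.50 times the marked level at day 60 (6.39 to 11.5) and 5.24 times at day 270 (4.18 to 6.65). The log2 differences were -2.82 ± 0.70 and -2.80 ± 0.70. The 0 of day 270 marked library 3 allows up to 0.325 CPM, and without that library the difference at day 270 was -1.78, or -1.70 without all 3 libraries of the added run. These are bulk samples, in which fewer cells of a type and less RNA per cell cannot be told apart.

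**Figure D1:**
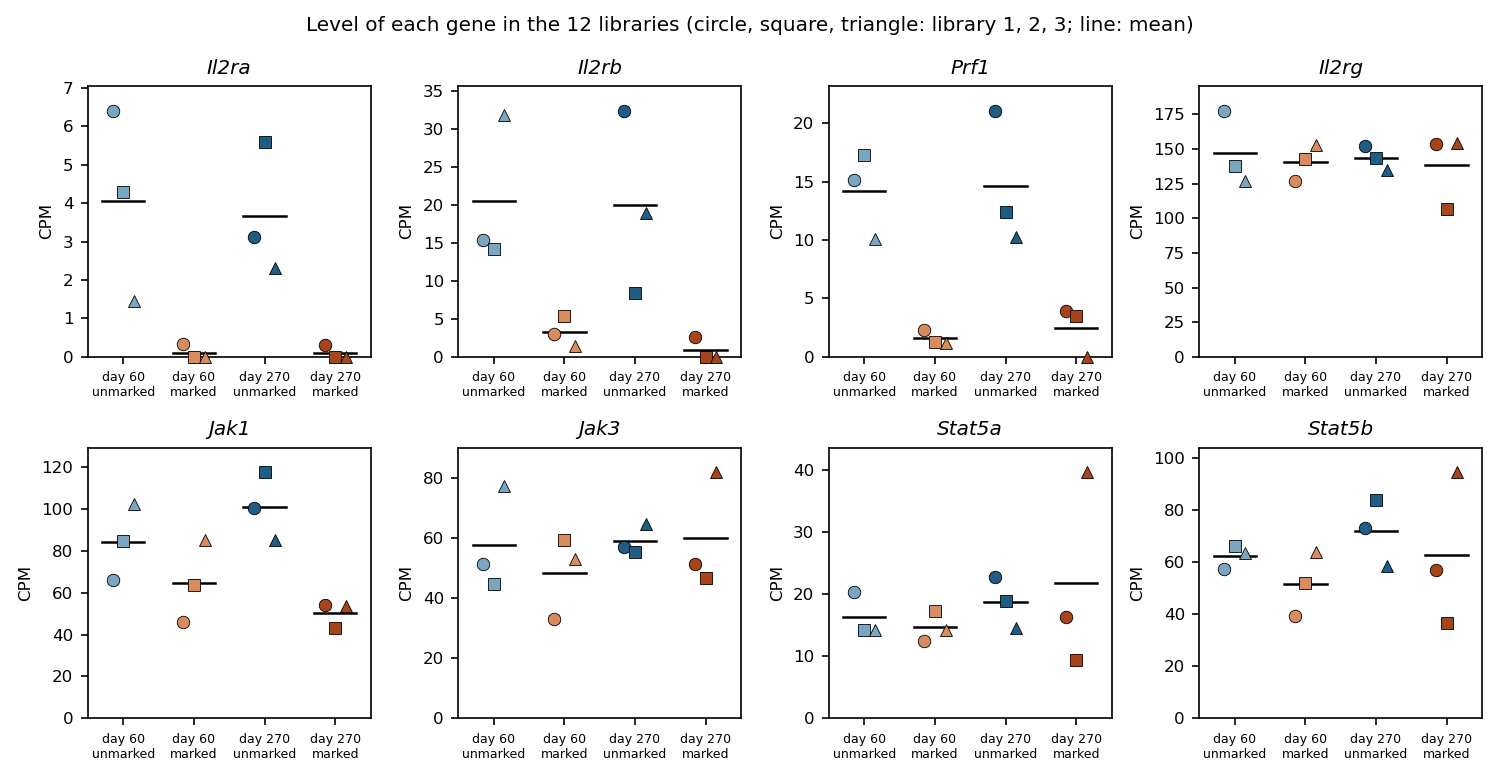
CPM of the 8 genes in each of the 12 libraries, by group, with each point a library (circle, square and triangle for libraries 1, 2 and 3) and the line its group mean. For Il2ra, Il2rb and Prf1 all 6 marked libraries lie below all 6 unmarked ones, and for Il2rg the groups overlap.

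The common gamma chain Il2rg, which IL-4, IL-7, IL-9, IL-15 and IL-21 receptors also use, was the most abundant of the 3 chains. It had 178, 138 and 127 CPM in unmarked and 127, 143 and 153 CPM in marked libraries at day 60. At day 270 the values were 153, 143 and 135 CPM against 153, 107 and 154 CPM. The populations overlapped at both days, and the marked minus unmarked log2 difference was -0.05 ± 0.19 at day 60 and -0.07 ± 0.19 at day 270. Of the exon bases of Il2rg, 30.5% are shared on the same strand with the gene model Gm20489, so part of its reads may have been assigned elsewhere or left out.

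Jak1, the kinase bound to the beta chain, was lower in marked cells in all 6 pairs. Unmarked libraries had 66.0, 84.6 and 102 CPM and marked ones 45.9, 63.5 and 85.1 CPM at day 60, where the groups overlapped. At day 270 the values were 100.2, 118 and 85.1 CPM against 54.1, 43.1 and 53.5 CPM, with no overlap, as for 12% of genes with marked libraries lower. The log2 differences were -0.40 ± 0.24 and -0.995 ± 0.24.

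Jak3, the kinase bound to the gamma chain, ranged from 32.8 to 81.8 CPM over the 12 libraries, with log2 differences of -0.26 ± 0.27 and -0.02 ± 0.27, and its groups overlapped at both days. Stat5b ranged from 36.6 to 94.7 CPM, with differences of -0.29 ± 0.28 and -0.28 ± 0.28. Stat5a ranged from 9.40 to 39.7 CPM, with differences of -0.13 ± 0.42 and -0.01 ± 0.42, and its highest value was day 270 marked library 3. Marked cells were lower in 4 of 6 pairs for Jak3 and Stat5b and in 3 of 6 for Stat5a. Both Stat5 genes lie on chromosome 11 and their coding sequences share an identical run of 324 bases from coding base 571 in each, of which the first 100 bases show how far the copies match.
Stat5a and Stat5b: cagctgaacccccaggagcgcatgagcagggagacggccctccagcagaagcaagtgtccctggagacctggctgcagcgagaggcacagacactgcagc
Of all 75-base stretches of the coding sequence, 16.7% of those in Stat5a are also in Stat5b, so reads there could be split or dropped by the read counter, which the sources used here do not name.

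**Figure D2:**
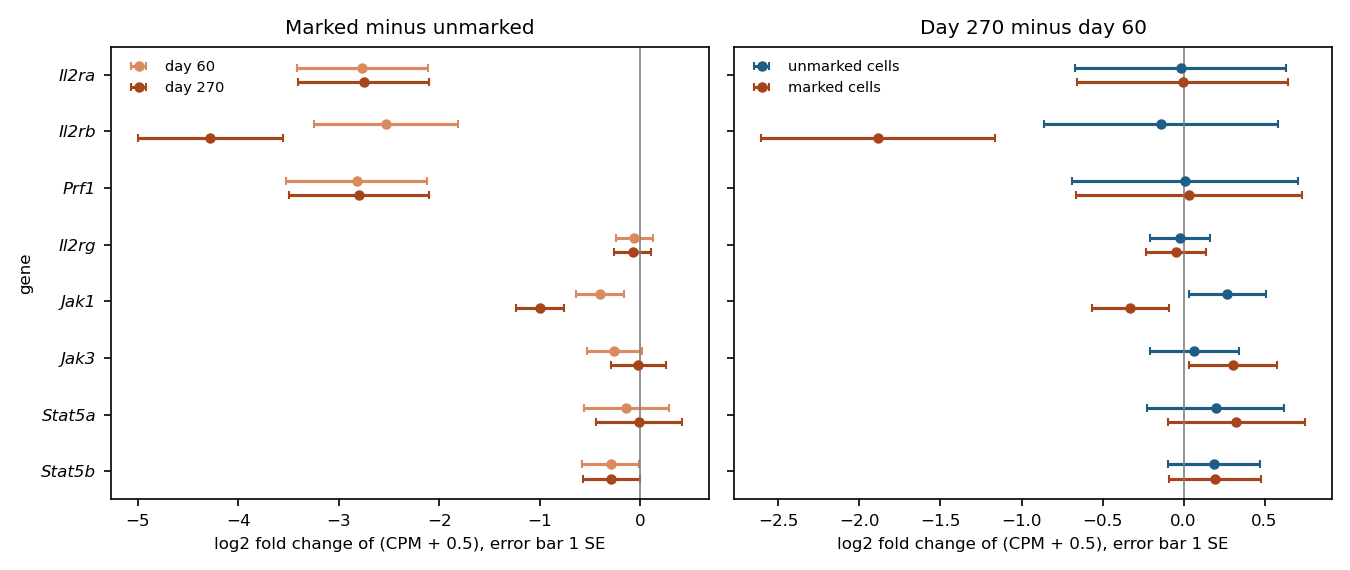
Marked minus unmarked difference on the log2(CPM + 0.5) scale for the 8 genes at days 60 and 270 (left) and day 270 minus day 60 in each population (right), with bars of 1 SE. On the left Il2ra, Il2rb and Prf1 lie between -4.28 and -2.53 and Il2rg lies at -0.05 and -0.07.

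The call rule, set here and not by the authors, was a Benjamini-Hochberg adjusted p under 0.05 in limma. It called 0 of the 8 genes at day 60, where it called 0.189% of all genes tested, and 1 of 8 (Il2rb) at day 270, where it called 0.48%. The Il2rb call was lost with edgeR (adjusted p = 0.0755), without day 270 unmarked library 1 or 3 (0.144 and 0.100, limma) and without the 3 libraries of the added run (0.356, limma). DESeq2 called Il2ra and Prf1 at day 60, among 119 genes in all, and Il2ra, Il2rb and Jak1 at day 270, among 256. With TMM scaling Il2rb and Jak1 were called at day 270, among 89 genes. Since the genes were chosen on this contrast, nothing is read from these counts. Non-overlap with the marked libraries lower in all 12 libraries was seen for 3 of 8, against 1.85% of genes (11.3% at day 60 alone). The calls over all genes were mostly lower in marked cells, 19 of 24 at day 60 and 55 of 61 at day 270. With TMM scaling they were 22 of 34 and 67 of 89. TMM scaling moved the median gene by 0.12 and 0.13 on the log2 scale.

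Per kilobase of exon, the order in unmarked cells was Il2rg at 61.0 CPM, Jak1 at 12.8, Stat5b at 12.1, Jak3 at 10.9, Prf1 at 5.56, Il2rb at 4.71, Stat5a at 2.46 and Il2ra at 0.676. In marked cells Il2rg was at 58.4, Stat5b at 10.3, Jak3 at 10.1, Jak1 at 7.96, Stat5a at 2.56, Prf1 at 0.785, Il2rb at 0.482 and Il2ra at 0.0186. Jak1, Stat5b and Jak3 were neighbours whose libraries overlapped, as were Prf1 and Il2rb in unmarked cells. The beta chain made up a small fraction of the gamma chain level throughout. The ratio of Il2rb to Il2rg per kilobase was 0.0819 ± 0.0505 (SD, n = 3) in unmarked and 0.0131 ± 0.00782 in marked cells at day 60, and 0.0764 ± 0.0429 and 0.00319 ± 0.00552 at day 270.

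The choice of genes was not made on the difference between days, so this was tested, although earlier results of these data were known. For none of the 8 genes was day 270 called against day 60 by limma, in marked cells, in unmarked cells or in their average, where 0.0315%, 0% and 0.189% of all genes were called. In unmarked cells, where limma called 0 genes, 378 had an unadjusted p under 0.05, edgeR called 0 and DESeq2 called 11. Il2rb in marked cells had the widest day difference, -1.88 ± 0.72 on the log2 scale (adjusted p = 0.415, limma), against -0.14 ± 0.72 in unmarked cells. That difference rests on day 270 marked libraries 2 and 3, which had 0 reads, and on day 60 marked library 2, since without the 3 it was 0.27. With both populations averaged, Il2rb differed by -1.01 ± 0.51, with an adjusted p of 0.608 in limma (0.0630 unadjusted). An exact two-sided permutation test of 6 libraries against 6 gave p = 0.411 (adjusted 0.853 over the 8 genes), where the smallest p is 0.00216. Both tests treat the 12 libraries as independent although each specimen gave 1 marked and 1 unmarked library, and the permuted splits also mix the populations. Over specimen means, 3 against 3, an exact test added after the values were seen gave p = 0.4 for Il2rb (adjusted 1.0 over the 8 genes), and it cannot go below 0.1. The other averages lay between -0.03 for Il2rg and 0.26 for Stat5a, with adjusted p of 0.853 to 0.985 in the exact test over libraries. The change of the marked minus unmarked difference from day 60 to day 270 was -1.75 ± 1.02 for Il2rb and -0.60 ± 0.34 for Jak1. It is described without a test, and limma called 0% of genes there (387 at an unadjusted p under 0.05, 0 by edgeR and 5 by DESeq2).

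The authors' deposited table for day 60 gave log2 fold changes of -4.89 for Il2ra, -2.77 for Il2rb and -2.99 for Prf1, with FDR values of 0.161, 0.350 and 0.350. In the same authors' deposited table the other 5 genes lay between -0.28 (Jak1) and 0.08 (Il2rg). Of the 8 genes, Il2rb alone was among the 265 of the authors' deposited table that sets day 270 marked against day 60 unmarked cells, at -6.35 with an FDR of 0.0367.

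Across 76 tested genes of 7 pathway lists, chosen with earlier results of these data known, marked cells were called lower for 1 gene at day 60 and 3 at day 270, and higher for 0. Calls lower in marked cells made up 0.15% and 0.433% of all genes, and calls higher 0.0394% and 0.0472%. At day 60, 10 of the 76 had an unadjusted p under 0.05 in limma, against 6.45% of all genes. At day 270, 17 did, against 14% of all genes. Their median log2 difference was -0.20 and -0.30, against -0.13 and -0.22 over all genes.

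Genes known as STAT5 targets held all of those calls. Ccnd2, which encodes cyclin D2 of the cell cycle, fell from 109 ± 7.14 CPM (SD, n = 3) in unmarked to 45.0 ± 14.3 in marked cells at day 60, and from 155 ± 19.4 to 67.2 ± 5.69 at day 270. The log2 differences were -1.32 ± 0.21 (adjusted p = 0.0109, limma) and -1.20 ± 0.21 (adjusted p = 0.0173). The survival kinase Pim2 had 121 ± 8.02 CPM in unmarked against 60.4 ± 18.6 in marked cells at day 270, a difference of -1.05 ± 0.22 (adjusted p = 0.0447, limma, and 0.0646 with the specimen as a block). The growth regulator Myc had 17.9 ± 1.28 and 3.11 ± 2.18 CPM there, a difference of -2.51 ± 0.49 (adjusted p = 0.0295, limma, and 0.0658 with the block). Pim1, the most abundant gene of the list after Mcl1, was at 308 ± 37.0 and 292 ± 28.7 CPM at day 60 (log2 difference -0.08 ± 0.18, adjusted p = 0.987, limma). The list's median was -0.21 at day 60 and -0.69 at day 270. Bcl2l1, which encodes the survival protein Bcl-xL, was the 1 pathway gene called between days. It rose by 1.52 ± 0.27 on the log2 scale from day 60 to day 270 with both populations averaged (adjusted p = 0.0199, limma), where 0.181% of all genes were called higher. Single libraries decided several of these calls. Ccnd2 lost its call at day 60 without unmarked library 1, 2 or 3 or marked library 2 (adjusted p = 0.0729, 0.0954, 0.0643 and 0.0597, limma). At day 270 it did so without unmarked library 1, 2 or 3 (0.0935, 0.0755 and 0.118). Myc lost it without day 60 unmarked library 1 or 2 (0.0527 and 0.0591) or day 270 unmarked library 1, 2 or 3 (0.183, 0.159 and 0.128). Bcl2l1 lost it without day 60 unmarked library 2 or 3, day 60 marked library 2, or day 270 unmarked library 2 or 3 (0.0752, 0.0793, 0.0868, 0.110 and 0.0921). Pim2 lost it without day 60 unmarked library 1, 2 or 3 or marked library 2 or 3, and without day 270 unmarked library 1, 2 or 3 or marked library 2 (adjusted p from 0.0555 to 0.185, limma). Pim2 was also not called by edgeR (adjusted p = 0.0611). With the 3 libraries of the added run left out, the calls of Ccnd2 at day 270, Pim2 and Bcl2l1 were lost. Their log2 differences in that run were -1.34, -0.76 and 1.30, with library 1 alone as the day 270 marked group.

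Of the list of receptors and ligands around the gamma chain family, 7 were tested and 0 were called. The most abundant of the list was Crlf2, a chain of the TSLP receptor, which does not use Il2rg. Crlf2 was at 218 ± 22.5 and 233 ± 12.8 CPM in unmarked and marked cells at day 60. Il15, a ligand of the beta and gamma chains, was at 15.0 ± 0.926 CPM in unmarked against 27.9 ± 8.20 in marked cells at day 270 (log2 difference 0.83 ± 0.32, adjusted p = 0.270, limma). Its alpha chain Il15ra had differences of 0.47 ± 0.52 and -0.59 ± 0.52. Il4ra, named after its values were seen, was lower in every marked than in every unmarked library. Among the 76 pathway genes 4 lay so, Il4ra included, against 1.85% of all genes. The log2 differences of Il4ra were -1.43 ± 0.62 and -2.42 ± 0.62 (adjusted p = 0.710 and 0.0913, limma).

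The other JAK and STAT genes (7 tested), the adaptors and downstream kinases (19) and the brakes on signalling (11) had 0 calls at either day. The median log2 differences at days 60 and 270 were -0.24 and -0.16, -0.16 and -0.22, and -0.24 and -0.29. Stat3, which IL-21 uses, was at 107 ± 38.9 and 93.0 ± 33.9 CPM in unmarked and marked cells at day 60. Ptpn6, a phosphatase that limits JAK signalling, was at 228 ± 20.4 and 222 ± 60.9 CPM.

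Of the cytotoxic granule genes other than Prf1, 13 of 20 listed had a row, 11 were tested and 0 were called at either day. Their median log2 difference was 0.01 at day 60 and -0.25 at day 270. Srgn, the proteoglycan core of such granules and of those in many blood cells, was at 790 ± 114 CPM in unmarked against 801 ± 268 in marked cells at day 60. Gzma, a granule protease named after its values were seen, had 84 and 59 reads in unmarked cells at days 60 and 270 and 0 in all 6 marked libraries, but day 60 unmarked library 3 also had 0. Its log2 differences were -1.94 ± 0.77 and -2.06 ± 0.77 (adjusted p = 0.651 and 0.249, limma). Gzmb is not analysed here. The 9 regulators of cytotoxic genes also had 0 calls, with medians of -0.58 and -0.50. Zeb2, named after its values were seen, had 6.94 ± 1.30 CPM in unmarked against 0.735 ± 0.759 in marked cells at day 270 (log2 difference -2.79 ± 0.62, adjusted p = 0.0531, limma).

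**Figure D3:**
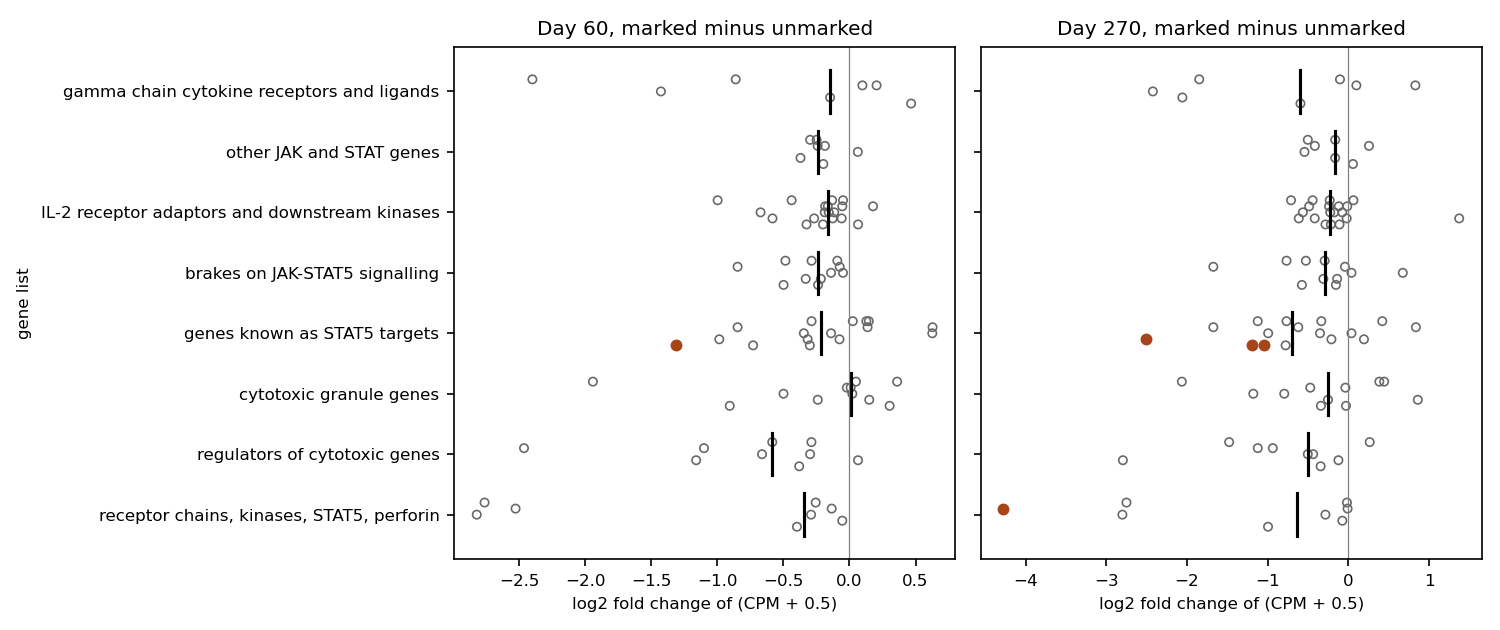
Marked minus unmarked log2 differences at days 60 and 270 for the tested genes of the 7 pathway lists, each point a gene, each black bar a list's median and filled points called genes, with the 8 genes in the bottom row. The medians of the 7 lists lie between -0.69 and 0.01, and their called genes are Ccnd2 at both days and Pim2 and Myc at day 270.

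Since these genes are best known from T cells and NK cells, the markers of those cells are given beside them. Of 15 T cell markers 8 had a row, and their summed level was 173 to 246 CPM in unmarked and 146 to 195 in marked libraries at day 60, and 230 to 312 and 118 to 257 at day 270. Most of this was Cd28, which plasma cells also express. Without Cd28 and the myeloid gene Tyrobp, a choice made after the values were seen, 9 of 22 T and NK cell markers summed to 12.2 to 34.1 CPM in unmarked and 10.1 to 14.1 in marked libraries at day 60. At day 270 they summed to 21.3 to 33.3 and 14.9 to 27.0 CPM, so the ranges overlapped at both days. Of the T cell markers 7 were tested and 0 were called, with 5 marked minus unmarked log2 differences below 0 and 2 above at each day. Cd4, the most abundant after Cd28, had -1.30 ± 0.74 at day 60 and -0.82 ± 0.74 at day 270. Cd3g, next in level, had -1.14 ± 0.53 and -0.29 ± 0.53 (adjusted p of both genes from 0.643 to 0.858, limma). Trac and Cd3d were named after their values were seen. The T cell receptor gene Trac was at 2.02 CPM or less in every library. Its marked minus unmarked log2 difference was 1.35 ± 0.68 at day 60 and -1.22 ± 0.68 at day 270 (adjusted p = 0.812 and 0.431, limma). Zeros occurred in both populations. Cd3d had 0 reads in 3 of 3 marked and 1 of 3 unmarked libraries at day 60, and in 1 of 3 marked and 2 of 3 unmarked libraries at day 270. Klrk1 had 0 reads in 2 of 3 marked and 0 of 3 unmarked libraries at day 60, and in 3 of 3 and 2 of 3 at day 270. Eomes had 0 reads in 2 of 3 marked and 0 of 3 unmarked libraries at day 60, and in 3 of 3 and 1 of 3 at day 270. Of 9 NK cell markers 3 had a row, and they summed to 6.47 to 11.8 CPM in unmarked and 3.93 to 6.96 in marked libraries at day 60, and to 3.50 to 10.1 and 10.9 to 14.1 at day 270. Most of this sum was Tyrobp, with a mean of 7.42 CPM over the 12 libraries, against 0.683 for Eomes and 0.271 for Klrk1. Cd3e, Ncr1 and Foxp3 are not analysed here. The part of T or NK cells in the Il2rb, Il2ra and Prf1 values was not tested.

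Of 5 regulatory T cell markers, 3 had a row, 1 of them Il2ra itself. Ctla4, an inhibitory receptor, averaged 22.0 ± 6.19 CPM in unmarked against 5.80 ± 1.71 in marked cells at day 270, a log2 difference of -1.84 ± 0.40 (adjusted p = 0.0463, limma, and 0.103 with the block). The call was lost without day 60 unmarked library 1, 2 or 3, marked library 2 or 3, or any of the day 270 libraries other than marked library 1 (adjusted p from 0.0555 to 0.273, limma). It was also lost with edgeR (adjusted p = 0.0581). Without the 3 libraries of the added run, the log2 difference of Ctla4 at day 270 was -1.42. Tnfrsf4, the other marker, reached at most 3.89 CPM in any library and had log2 differences of -0.32 ± 0.87 at day 60 and 0.19 ± 0.87 at day 270 (adjusted p = 0.987 and 0.943, limma). Without Il2ra, left out after the values were seen because it was chosen on this contrast, the sum of Ctla4 and Tnfrsf4 was 13.1 to 19.7 CPM in unmarked and 6.23 to 9.99 in marked libraries at day 60. At day 270 it was 18.5 to 29.1 and 4.44 to 9.13 CPM, most of it Ctla4. With Il2ra the sums were 14.6 to 26.1 and 6.55 to 9.99 CPM, and 20.9 to 34.6 and 4.44 to 9.13 CPM. Erythroid markers moved the other way, at 37.3 to 61.6 CPM in unmarked and 107 to 343 in marked libraries at day 60, and 27.9 to 161 and 170 to 786 at day 270. B cell markers summed to 1248 to 1395 and 1103 to 1237 CPM at day 60, and myeloid markers to 30.0 to 231 and 21.0 to 536. The part of these cells in the values was not tested.

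**Figure D4:**
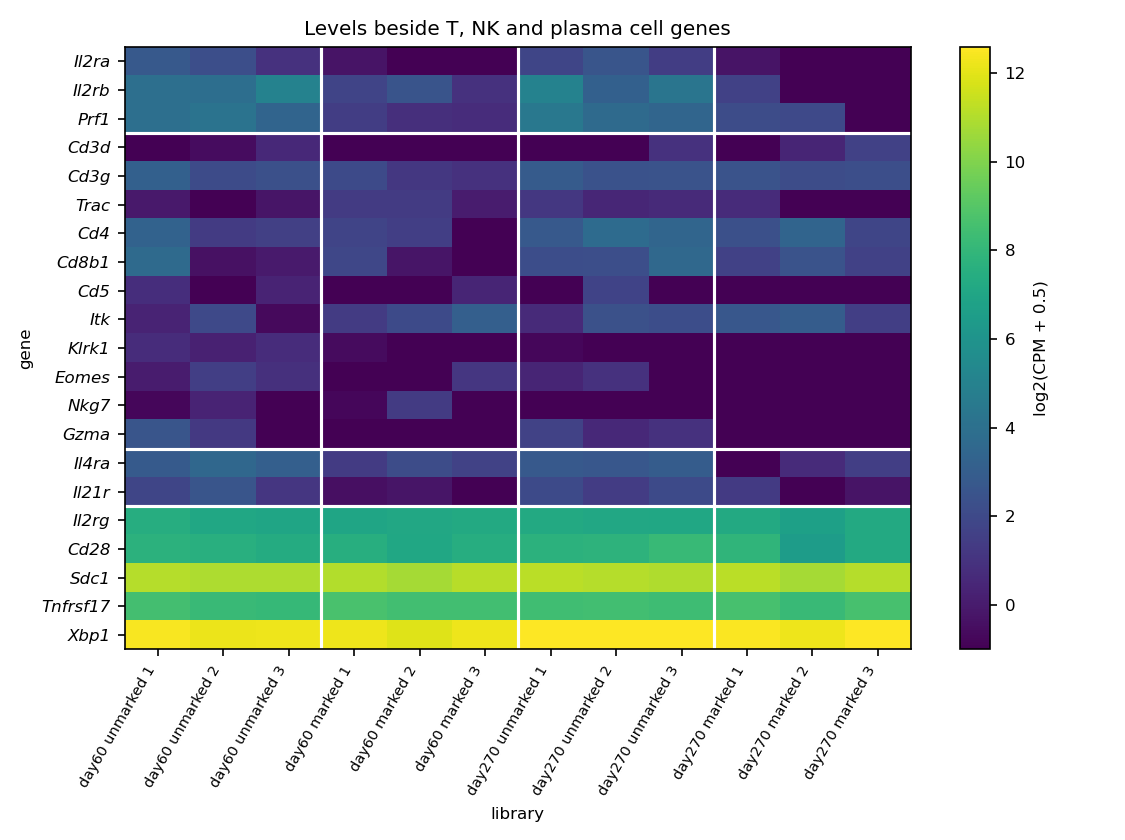
Level of Il2ra, Il2rb, Prf1 and Il2rg beside T, NK and plasma cell genes (rows) in the 12 libraries (columns), on a log2(CPM + 0.5) colour scale. Cd28 is high throughout, and Trac does not exceed 2.02 CPM in any library.

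The genes most alike to each of the 3 low genes over the 12 libraries are given as a description, since the libraries share their groups. For Il2rb they were Oaz2-ps (Pearson r = 0.966), Gm11405 (0.950), Birc5 (0.949), Kcna3 (0.945) and Tigit (0.944). Tigit, an inhibitory receptor, had a mean of 59.4 CPM in unmarked and 14.4 in marked libraries, and Birc5, a mitosis gene, had 7.57 and 0.871. For Il2ra they were Limd2 (0.971), Cep55 (0.948), Coro1a (0.946), Atp1b1 (0.942) and H2-Eb2 (0.938), of which Atp1b1, a sodium pump subunit, had 54.2 and 7.27 CPM. For Prf1 they were Siglecg (0.971), Plk1 (0.967), S1pr1 (0.935), Tacc3 (0.913) and Aurkb (0.912). Siglecg, an inhibitory lectin of B cells, had 15.8 CPM in unmarked and 2.22 in marked libraries, and the mitotic kinase Plk1 had 6.28 and 1.22.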

How the data were processed

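Per the labels' protocols, a TruSeq RNA kit was used on RNA from RNeasy Micro columns. The submitters' processing notes name GRCm38 and limma. The aligner, the counter and any strand setting were not given in the sources used here. Counts, as whole reads of 230 genes, are 1 of the authors' deposited tables. Their 2 comparison tables hold CPM in each library, per the file headers. The authors' log2 fold changes and the authors' p-values with FDR stand beside them. Whole reads were recovered from CPM. All 131943 values above 0 and below 1000 reads came out whole to 0.05, and 2760 of 2760 count cells matched.

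All 12 libraries were fitted with limma 3.58.1 (trended prior, two-sided, R 4.3.3) on log2(CPM + 0.5), with 1 coefficient per group, which leaves 8 residual degrees of freedom. The edgeR 4.0.16 function filterByExpr (minimum count 10) kept 12704 genes and removed 1515. The threshold was 0.05 on the Benjamini-Hochberg adjusted p. Alternatives were edgeR, DESeq2 1.42.0, TMM scaling, a pseudocount of 1, no filter, a block (the specimen within a day, the replicate number between days) and libraries left out. Libraries sharing a specimen number had residual correlations with a median of 0.0556 (6 pairs), against -0.0194 for other pairs (12). Nothing says that libraries of a group came from separate animals beyond these numbers, so p-values measure the spread between these samples. Intervals and floors of 3 reads cover counting error only.

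The 8 genes and the lists were chosen with earlier results of these data known. Named were the 8 genes, plasma cell markers, called list genes, the 3 most abundant of each list (shown in part) and the 5 genes most alike. Others are said to be chosen after their values were seen.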

Additional observations from a re-analysis of the deposited data

How the results depend on the processing

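Il2ra, Il2rb, Prf1 and Jak1 had the same sign of marked minus unmarked at both days in 19 of 19 alternatives. Il2ra, Il2rb and Prf1 were chosen on this contrast and their populations did not overlap, so leaving libraries out could not change their sign. Leaving out a library of 1 day also left the log2 difference of the other day as it was. At day 60 the log2 difference ranged from -4.93 to -2.06 for Il2ra, -2.92 to -2.12 for Il2rb and -3.05 to -2.55 for Prf1. At day 270 it ranged from -4.75 to -2.03, -5.16 to -2.51 and -3.35 to -1.70. The day averages of the 8 genes had 0 calls in the permutation test in each setting run, with a range of 0 to 0 when 1 library was left out. The number of genes called changed more, and the cause was not tested. At day 60 it was 24, with 119 by DESeq2, 48 without the 3 libraries of the added run and 3 to 53 when 1 library was left out. At day 270 it was 61, with 36 by edgeR, 256 by DESeq2, 16 without the 3 libraries and 5 to 482 when 1 was left out. Between days it was 4 in marked cells (edgeR 2, DESeq2 128, without the 3 libraries 0, range 0 to 161) and 0 in unmarked cells (DESeq2 11, range 0 to 8). It was 24 for their average (pseudocount of 1, 44; DESeq2 142; without the 3 libraries 0; range 3 to 58). With TMM scaling, 18 of 21 of these were higher at day 270, against 23 of 24. For the interaction it was 0 (DESeq2 5, range 0 to 1). Low reads limit Il2ra most, with 9 reads in marked libraries.

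With the specimen as a replicate block, 38 genes were called at day 60 and 44 at day 270, and the pathway calls of Pim2 and Myc and that of Ctla4 were lost. Between days the block joins replicate numbers of different specimens, and it gave 4, 0 and 19 calls in marked cells, unmarked cells and their average.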
